A study of Mus musculus with 18 samples.

Results

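Wild-type mouse liver was compared between 4 weeks (4W) and 2 days (2D) after diethylnitrosamine (DEN), a carcinogen that hepatocytes activate to a DNA-alkylating agent. The comparison takes 6 of the 18 RNA-seq libraries of the study, 3 of the group 4W WT and 3 of the group 2D WT, chosen by their labels. Both groups carry an intact Nfe2l2, the gene of the transcription factor NRF2, on a mixed B6;129P2 background. The remaining 12 libraries are 3 each of 4W KO and 2D KO, from NRF2 knockout animals given the same carcinogen, and of WT and KO at 36 weeks. They enter the fit that estimates the spread, and the 4W KO and 2D KO libraries are used as a second pair of time points. The labels give neither the age of the animals at DEN nor their sex, and none of the groups analysed here went without DEN. Postnatal growth and time since DEN therefore cannot be told apart. The library codes in the titles begin with A at 4W and with B at 2D, with no meaning given, so a difference in handling cannot be told apart from time either. In the labels the 2D samples are given as liver tumor and the 4W samples as liver tissue. The labels do not say which cell population or how many animals each library holds.

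The liver of a newborn mouse is still leaving its fetal program. It stops making alpha-fetoprotein and fetal growth factors, loses the blood-forming cells it hosts before birth, and gains the enzymes of drug, bile acid and lipid metabolism, many of them under growth hormone. Young hepatocytes divide, and adult ones seldom do. DNA damage, which DEN can cause, activates the transcription factor p53, which turns on genes that halt the cell cycle or start cell death.

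Library totals were 19080039, 19628258 and 16454405 counts in 4W WT and 19001206, 17646448 and 17616008 counts in 2D WT, with 12908 to 13542 and 13805 to 14660 genes at 10 counts or more. All values below are CPM (counts scaled to a library of 1e+06) after TMM scaling, a method that corrects for differences in library composition. Its factors were 0.93 to 1.00 in 4W WT and 1.13 to 1.23 in 2D WT. All 6 libraries were liver: the hepatocyte gene Alb stood at 70371, 86226 and 100579 CPM in 4W WT and at 58873, 62897 and 60766 CPM in 2D WT. In all 6 libraries the Y-linked gene Ddx3y was expressed, at 67.6 to 71.5 CPM in 4W WT and 64.7 to 96.0 CPM in 2D WT, and Xist was at 0.217 CPM or less. Along the first principal component of the 6 libraries, which held 69.2% of the variance, the groups separated. The second held 19.4% and set 2D WT 3 (58.5) apart from 2D WT 1 and 2D WT 2 (-31.9 and -32.2). That library had high levels of stellate cell, fibroblast and bile duct genes, described with the cell types below. Calls lost without it are given below for some genes and lists, but not for all.

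Many genes differed between the time points. Of 14877 genes tested, edgeR's quasi-likelihood test called 5606, which is 37.7%, at an adjusted p under 0.05 (Benjamini-Hochberg over all genes tested). Of these, 2845 were higher at 4W (19.1% of genes tested) and 2761 lower (18.6%). The change was 8-fold or more for 226 of the genes called higher and 353 of those called lower. The median log2 fold change of all genes tested, 4W WT over 2D WT, was -0.05. Among the called genes 94.4% had no overlap between the 3 libraries of each group, against 49.6% of all genes tested. The split of calls rested on the scaling: 50.75% of called genes were higher with TMM, against 24.13% with library size alone, which moved the median of all genes by -0.29. Gene lists are described below by the number of members called in each direction, to be read against the shares 19.1% and 18.6%, and by the median of their members. Since the libraries are bulk tissue, fewer cells of a type and less RNA per cell cannot be told apart in any of these changes.

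**Figure D1:**
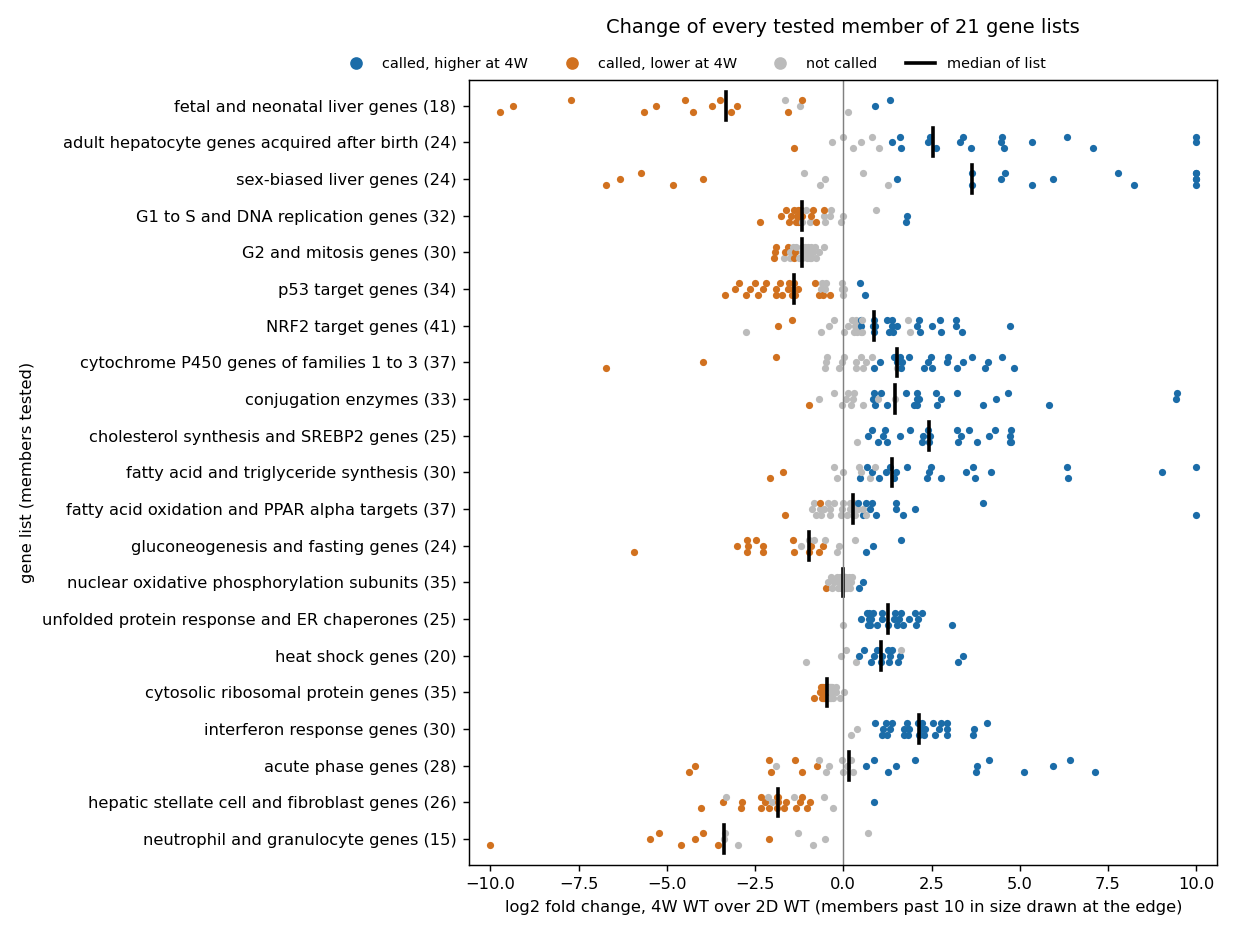
Each point is 1 tested member of a gene list, placed by its log2 fold change of 4W WT over 2D WT on the horizontal axis, with the list and its number of tested members on the vertical axis. Blue points were called higher at 4W, orange points lower and grey points not called, and the black bar is the median. Cholesterol synthesis (median 2.43), interferon response (2.13) and unfolded protein response genes (1.26) lie to the right, and fetal genes (-3.33), p53 targets (-1.41) and neutrophil genes (-3.37) to the left.

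Fetal liver genes were lower at 4W. Of 18 tested members, 13 were lower and 2 were higher at 4W, and the median was -3.33 against -0.05 for all genes tested. Alpha-fetoprotein, Afp (chr5:90490714-90508907, mm10), the main plasma protein of the fetus, had 2.93, 4.35 and 7.42 CPM in 4W WT, against 6417, 4290 and 1567 CPM in 2D WT. Its log2 fold change was -9.71 (SE 0.88, edgeR adjusted p = 1.04e-06), and the groups lay far apart although the 2D WT libraries differed among themselves. The imprinted growth factor gene Igf2 had 0.815, 3.68 and 2.15 CPM in 4W WT and 1450, 1795 and 1166 CPM in 2D WT (-9.36, SE 0.82, edgeR adjusted p = 8.48e-07). Its neighbour H19, an imprinted noncoding RNA, had 4.18, 24.4 and 29.2 CPM in 4W WT and 3360, 4932 and 3933 CPM in 2D WT (-7.73, SE 0.98). Other imprinted genes were lower as well. Peg3 had 17.7, 15.9 and 7.88 CPM in 4W WT and 344, 432 and 148 CPM in 2D WT (-4.47), the cell cycle inhibitor Cdkn1c had 2.93, 3.27 and 2.47 CPM and 25.1, 30.3 and 42.8 CPM (-3.49), and Grb10, an inhibitor of insulin and IGF receptor signalling, changed by -3.17. The surface proteoglycan gene Gpc3 had 1.90, 1.43 and 3.58 CPM in 4W WT and 84.0, 93.0 and 92.5 CPM in 2D WT (-5.31). The 2 members that were higher, Zbtb20 (1.33) and Zhx2 (0.89), encode repressors of Afp in mouse liver. Afp, Igf2, H19 and Gpc3 also stand in the list of tumour and oncofetal markers, of whose 22 tested members 17 were lower and 0 higher at 4W.

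Genes that hepatocytes switch on after birth moved the other way. Of 24 tested members, 17 were higher at 4W and 1 was lower, with a median of 2.54. Mup3 (chr4:62083476-62087342), a major urinary protein made by liver and excreted as a pheromone carrier, had 5981, 3392 and 3892 CPM in 4W WT, against 0.808, 0.400 and 1.44 CPM in 2D WT (12.27, SE 1.19, edgeR adjusted p = 2.23e-06). Adh4, an alcohol and retinol dehydrogenase, had 134, 129 and 127 CPM in 4W WT and 5.30, 4.4 and 6.86 CPM in 2D WT (4.56, SE 0.36). Serpina1e, a serine protease inhibitor, had 6339, 2032 and 5820 CPM in 4W WT and 119, 128 and 105 CPM in 2D WT (5.34, SE 0.55). The single member that was lower was Tat, tyrosine aminotransferase, with 907, 676 and 769 CPM in 4W WT and 2139, 3118 and 931 CPM in 2D WT (-1.40). In KO livers Tat was higher at 4W (1.21), and the difference of -2.61 was called (edgeR adjusted p = 0.0186). Mup, Ugt2b, Ces, Cyp and Sult2a genes have near-identical copies, so the counting could have split their reads between family members, and values of single members are uncertain.

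**Figure D2:**
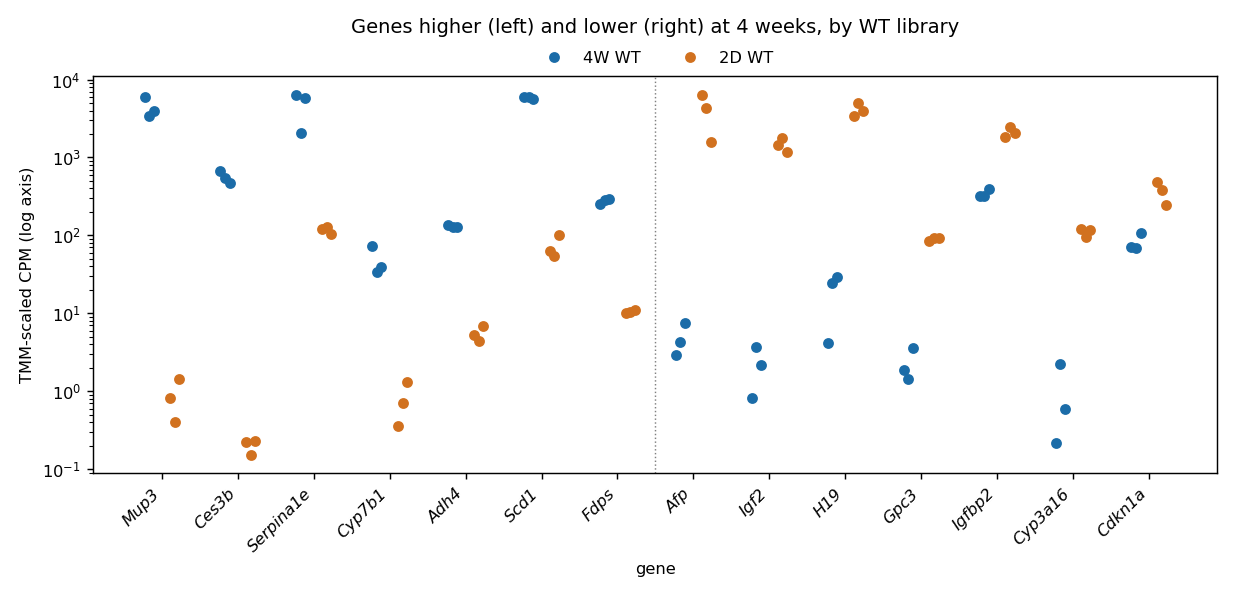
TMM-scaled CPM of 14 genes on a log axis, 1 point per library, with the 3 libraries of 4W WT in blue left of the 3 of 2D WT in orange. The 7 genes on the left were higher at 4W (Scd1 at 5605 to 6007 against 54.0 to 101 CPM) and the 7 on the right lower (Afp at 2.93 to 7.42 against 1567 to 6417 CPM), and in none of them do the groups overlap. For Mup3, Ces3b, Afp, Igf2, H19 and Cyp3a16, no overlap was a condition of their place among the largest changes.

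The 15 genes with the largest rise at 4W were Mup3, 6 further Mup genes (Mup7, Mup11, Mup14, Mup15, Mup17 and Mup20), the carboxylesterase Ces3b, the fatty acid hydroxylases Cyp4a12a and Cyp4a12b, the fatty acid elongase Elovl3, the glucuronosyltransferases Ugt2b37 and Ugt2b38, the transporter Slc22a28 and the adipokine gene Serpina12. Cyp4a12a had 297, 128 and 184 CPM in 4W WT and no count in the 3 libraries of 2D WT, which makes it at least 4305-fold higher against a floor of 3 counts over the group. By the same floor, Mup7 was at least 796-fold and Serpina12 at least 587-fold higher. Ces3b, with some counts at both times, had 679, 545 and 468 CPM in 4W WT and 0.224, 0.150 and 0.232 CPM in 2D WT (11.39, SE 0.87, edgeR adjusted p = 2.1e-07). Elovl3 had 231, 37.2 and 63.5 CPM in 4W WT and 2 counts in all 3 libraries of 2D WT. With limma-voom, Cyp4a12a, Elovl3, Mup7, Mup11, Mup15 and Mup17 passed the threshold no longer, with adjusted p from 0.0617 for Elovl3 to 0.253 for Mup7.

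The 15 genes with the largest fall held, beside Afp, Igf2 and H19, genes of several kinds. Ltf, the lactoferrin of neutrophil granules, had no count in 4W WT and 107, 78.5 and 32.2 CPM in 2D WT, at least 1295-fold lower. Cyp3a16, a cytochrome P450 of perinatal mouse liver, had 0.217, 2.25 and 0.586 CPM in 4W WT and 121, 94.1 and 119 CPM in 2D WT (-6.72, SE 1.00). The steroid sulfotransferase gene Sult2a1 had 0.217, 3.58 and 1.30 CPM in 4W WT and 124, 107 and 187 CPM in 2D WT (-6.33, SE 0.63). Hsd3b1, a steroid dehydrogenase, changed by -5.96 and Mep1a, a metalloprotease subunit, by -7.41. Levels of Mep1a, Slc4a11, Atg9b, Tceal5 and Zfp365 in 2D WT spread widely, as in Mep1a with 36.5, 19.6 and 5.33 CPM. In 4W WT Mep1a had 0.0543, 0.0511 and 0.260 CPM. The 15 genes were selected for no overlap between the groups, so that separation is a condition of the list and not a result. With limma-voom the calls for Slc4a11 (adjusted p = 0.0548), Atg9b (0.0611) and Krt20 (0.201), also among the 15, were lost.

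Sex-biased genes of adult liver changed in both directions. Of 24 tested members, 14 were higher and 5 lower at 4W. Among those higher were male-biased ones, such as Cyp7b1, an oxysterol hydroxylase, with 72.2, 34.1 and 38.9 CPM in 4W WT and 0.359, 0.701 and 1.30 CPM in 2D WT (5.93, SE 0.81, edgeR adjusted p = 5.08e-05). The 5 that were lower were Sult2a1, Sult2a2 (-4.82), Cyp3a16, Cyp3a44 (-3.97) and the repressor Cux2 (-5.72), which are female-biased in adult mice. Cyp2a4, female-biased in adults, was higher at 4W (3.63). In the growth hormone and IGF axis 9 of 18 members were higher and 5 lower. The growth hormone receptor gene Ghr had 583, 464 and 493 CPM in 4W WT and 122, 111 and 147 CPM in 2D WT (2.02, SE 0.31, edgeR adjusted p = 0.000156). Igfals, whose product binds complexes of IGF and its binding proteins in serum, changed by 2.29. The binding protein gene Igfbp2 had 319, 323 and 396 CPM in 4W WT and 1814, 2490 and 2079 CPM in 2D WT (-2.62, SE 0.37). The count of 9 fell to 3 without 2D WT 1 or without 2D WT 2, and to 5 without 4W WT 1 or with library size alone. Among hepatocyte transcription factors, 8 of 26 were higher and 4 lower (2 lower without 4W WT 1 or 4W WT 3). Foxa1, a pioneer factor of liver genes, had 52.9, 44.8 and 42.3 CPM in 4W WT and 9.25, 5.95 and 7.70 CPM in 2D WT (2.61, SE 0.16, edgeR adjusted p = 3.62e-08), and Cebpa, a factor of the differentiated hepatocyte, changed by 1.69. Hnf4a changed by 0.60.

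Targets of p53 were lower at 4W as a group. Of 34 tested members 24 were lower and 2 higher, with a median of -1.41. Cdkn1a (chr17:29090979-29100722), which encodes the cyclin-dependent kinase inhibitor p21, had 70.9, 68.4 and 106 CPM in 4W WT, against 485, 381 and 246 CPM in 2D WT (-2.18, SE 0.41, edgeR adjusted p = 0.000698). Mdm2, the ubiquitin ligase that degrades p53, had 37.4, 39.1 and 43.6 CPM in 4W WT and 153, 102 and 59.4 CPM in 2D WT (-1.39, SE 0.30). Tnfrsf10b, a death receptor, had 2.99, 2.30 and 2.80 CPM in 4W WT and 22.5, 18.2 and 13.7 CPM in 2D WT (-2.75, SE 0.34). In Cdkn1a, Mdm2 and Tnfrsf10b, 2D WT 3 was the lowest of its group and still above every 4W WT library. Sesn2, a stress-induced inhibitor of growth signalling, changed by -1.80, the kinase Plk2 by -1.90 and Trp53inp1, a p53 cofactor, by -2.50. The 2 members that were higher, Xpc (0.48) and 9630033F20Rik (0.63), moved by less. Without 2D WT 3 the counts were 25 lower and 1 higher. Psrc1, Gtse1 and Ckap2 in this list are also genes of dividing cells.

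Replication genes were lower at 4W, and mitosis genes leaned the same way with less certainty. Of 32 genes of G1 to S phase and DNA replication, 20 were lower and 2 (E2f8 and Mcm10) higher, with a median of -1.17. Without 2D WT 3, 15 were lower and 3 higher, with a median of -0.81. Rrm2, a subunit of the enzyme that makes deoxyribonucleotides, had 14.3, 17.2 and 25.3 CPM in 4W WT and 61.0, 52.5 and 62.7 CPM in 2D WT (-1.64, SE 0.27, edgeR adjusted p = 0.00025). The helicase subunit gene Mcm7 had 17, 19.8 and 21 CPM in 4W WT and 40.5, 38.5 and 50.5 CPM in 2D WT (-1.16, SE 0.14). Of 30 genes of G2 and mitosis 7 were called, all 7 lower, although all 30 fold changes were below 0 (median -1.17). Birc5, an inhibitor of apoptosis needed for chromosome segregation, had 4.29, 5.06 and 10.4 CPM in 4W WT and 23.7, 28.6 and 24.4 CPM in 2D WT (-1.96, SE 0.47, edgeR adjusted p = 0.00422). The number of mitosis genes called was 13 without 4W WT 3, whose summed level of 411 CPM stood above the 163 and 182 CPM of the other 4W WT libraries. It was 1 without either of those, 4 without 2D WT 1, and 2 without 2D WT 2 or 2D WT 3. In a fit of the 6 WT libraries alone it was 17. In the KO pair of time points 20 were called lower, and for none of the 30 did edgeR call a difference between WT and KO. Of 31 DNA repair genes 13 were lower (9 without 4W WT 1 and 11 without 2D WT 3) and 2 higher. Those that were lower included the homologous recombination genes Brca1 (-1.72) and Brca2 (-1.58), and those that were higher were Apex1 (1.03) and Parp1 (0.73).

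The promoter of the mitosis gene Ube2c is shown for a short element that many of these genes hold. The stretch is from RefSeq (GRCm38.p6, the build of mm10), 250 bases that end at the base before the start, on the strand of the gene, at chr2:164769679-164769928. Capitals mark TTTGAA or its reverse complement, the core of the cell cycle homology region through which mitosis genes are held off in resting cells. Ube2c, which encodes a ubiquitin-conjugating enzyme of mitotic exit, had 4.73, 7.82 and 16.3 CPM in 4W WT and 37.4, 37.5 and 35.4 CPM in 2D WT (-1.94, SE 0.64, edgeR adjusted p = 0.0256), a call that was lost without 2D WT 2, 4W WT 1 or 4W WT 2.
Ube2c: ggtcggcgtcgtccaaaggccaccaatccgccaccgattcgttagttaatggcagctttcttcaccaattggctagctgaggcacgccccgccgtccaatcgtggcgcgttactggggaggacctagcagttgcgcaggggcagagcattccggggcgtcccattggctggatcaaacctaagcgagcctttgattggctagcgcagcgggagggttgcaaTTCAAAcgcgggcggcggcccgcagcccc
The match begins 29 bases before the start of Ube2c and is on the opposite strand. On either strand the 6 letters were in the window (250 bases before to 50 after the start) of 17 of 24 mitosis genes with a window, 70.8%, against 1298 of 10730 genes tested, 12.1%. A match of letters is a description of the window and does not show that a factor binds there.

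Genes of drug metabolism were higher at 4W. Of 37 cytochrome P450 genes of families 1 to 3, 21 were higher and 3 lower (median 1.51), and of 33 conjugation enzymes 21 were higher and 1 lower (median 1.47). Cyp2j5, an arachidonate epoxygenase, had 576, 500 and 520 CPM in 4W WT and 27, 17.3 and 49.6 CPM in 2D WT (4.09, SE 0.56, edgeR adjusted p = 5.8e-05). The glucuronosyltransferase gene Ugt2b1 had 790, 515 and 732 CPM in 4W WT and 112, 96.2 and 119 CPM in 2D WT (2.64, SE 0.26). Among 26 hepatic transporters 11 were higher and 6 lower (4 lower without 2D WT 3). Slc22a30, of the organic anion transporter family, had 209, 156 and 174 CPM in 4W WT and 3.86, 0.851 and 2.13 CPM in 2D WT (6.28, SE 0.67). Abcg5, which exports sterols into bile, was lower, with 80.1, 81.2 and 70.2 CPM in 4W WT and 429, 424 and 282 CPM in 2D WT (-2.29, SE 0.25). Of 21 genes of bile acid synthesis and its feedback 11 were higher and 2 lower, among them Baat, which conjugates bile acids (2.31), and Hsd3b7, an enzyme of their synthesis (1.89).

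Nfe2l2 itself had 109, 109 and 90.0 CPM in 4W WT and 73.2, 70.2 and 76.2 CPM in 2D WT, a log2 fold change of 0.49 (SE 0.14, edgeR adjusted p = 0.0139). The groups did not overlap, but the call was lost with library size alone (0.20, adjusted p = 0.349), without 4W WT 1 (adjusted p = 0.0516) and without 4W WT 2 (adjusted p = 0.0512). Of 41 tested NRF2 target genes 22 were higher and 2 lower at 4W, with a median of 0.87. They did not move as one. Nqo1, a quinone reductase often used as a readout of NRF2, had 11.2, 17.5 and 16.5 CPM in 4W WT and 29.1, 26.3 and 14.2 CPM in 2D WT (-0.62, SE 0.56, edgeR adjusted p = 0.399), with overlapping groups. When 2D WT 3 alone was left out of the main fit, Nqo1 was still not called. A fit of the other 5 WT libraries alone, chosen after seeing the data, called it lower (-0.89, edgeR adjusted p = 0.00408). Hmox1, which degrades heme, was lower at 4W (-1.86). Abcc3, an efflux pump for conjugates, had 432, 381 and 320 CPM in 4W WT and 51.0, 51.0 and 22.2 CPM in 2D WT (3.19, SE 0.34, edgeR adjusted p = 5.95e-06), and Tkt, a transketolase of the pentose phosphate pathway, had 162, 179 and 174 CPM and 58.1, 57.3 and 64.3 CPM (1.52, SE 0.13). Ugt2b5 (2.15), the ferritin light chain gene Ftl1 (1.38), Gstm3 (4.73) and Gsta2 (3.35) were higher too, and several of these genes are also among the enzymes that rise after birth. In the KO pair of time points 17 of the 41 were higher and 3 lower, and the difference between WT and KO was called for 2, Ugt2b5 and Ugt2b35.

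Cholesterol synthesis genes were higher at 4W almost throughout. Of 25 tested genes of this pathway and of SREBP2, the factor that controls it, 24 were higher at 4W and 0 lower, with a median of 2.43. The exception was Hsd17b7, with a log2 fold change of 0.38. Fdps (chr3:89093592-89101967), which makes farnesyl diphosphate, had 255, 282 and 292 CPM in 4W WT, against 9.97, 10.5 and 11 CPM in 2D WT (4.72, SE 0.20, edgeR adjusted p = 1.24e-09). Tm7sf2, a sterol reductase, had 129, 126 and 122 CPM in 4W WT and 11, 12.3 and 16.5 CPM in 2D WT (3.24, SE 0.17). The groups did not overlap in either of these genes. In the KO pair 22 of the 25 were higher and 0 lower (median 2.10).

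Fatty acid synthesis rose beside it. Of 30 genes of fatty acid and triglyceride synthesis 21 were higher and 2 lower at 4W (median 1.38). Scd1 (chr19:44394451-44407709), which introduces the double bond of oleate, had 6007, 5946 and 5605 CPM in 4W WT and 63.4, 54.0 and 101 CPM in 2D WT (6.33, SE 0.52, edgeR adjusted p = 4.4e-07). Fasn, the fatty acid synthase, had 570, 1381 and 1011 CPM in 4W WT and 44.1, 41.1 and 76.4 CPM in 2D WT (4.20, SE 0.46). The 2 members that were lower were Scd2 (-1.71), the desaturase isoform of perinatal mouse liver, and Cidec (-2.08), a lipid droplet protein whose groups overlapped and whose call was lost without 2D WT 2, 4W WT 2 or 4W WT 3. Fatty acid oxidation genes moved less, with 12 of 37 higher and 2 lower (4 lower without 2D WT 3), and a median of 0.27 that was -0.02 with library size alone. Fabp1, the liver fatty acid binding protein, had 2387, 2235 and 2726 CPM in 4W WT and 119, 143 and 207 CPM in 2D WT (3.97, SE 0.35). Of 35 nuclear subunits of oxidative phosphorylation 32 were not called. Sdha (0.44) and Ndufa1 (0.55) were higher, Atp5o was lower (-0.50; 4 members without 2D WT 3), and each of these 3 calls was lost with at least 1 library left out.

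Genes of fasting and glucose output were lower at 4W. Of 24 tested members 14 were lower and 3 higher, with a median of -0.97. The 3 higher ones became 1 without 2D WT 1, 2D WT 2 or 4W WT 1. Igfbp1, an IGF binding protein induced in liver by fasting, had 57.1, 14.5 and 20.2 CPM in 4W WT and 1668, 2968 and 1013 CPM in 2D WT (-5.94, SE 0.77, edgeR adjusted p = 3.41e-05). Ppargc1a, a coactivator of gluconeogenic and mitochondrial genes, had 12.3, 7.21 and 8.27 CPM in 4W WT and 64.7, 86.6 and 33.4 CPM in 2D WT (-2.73, SE 0.39). G6pc, the phosphatase that releases free glucose, had 109, 99.3 and 104 CPM in 4W WT and 601, 857 and 577 CPM in 2D WT (-2.71, SE 0.83, edgeR adjusted p = 0.018), a call that was lost without any 1 of the 4W WT libraries (adjusted p 0.0538 to 0.0597). Per1, a clock gene that also responds to glucocorticoids, changed by -3.0 and the kinase Sik1 by -2.47. Pck1, the gluconeogenic carboxykinase, had 2314, 755 and 606 CPM in 4W WT and 2561, 3214 and 2629 CPM in 2D WT and was not called (-1.19, edgeR adjusted p = 0.0767). On the glucose-using side, Pklr, the liver pyruvate kinase, changed by 2.38. Ldhb, a lactate dehydrogenase subunit, was lower (-3.57). Over the 28 glycolysis genes 5 were higher and 4 lower, with a median of -0.05 that is that of all genes.

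In amino acid metabolism the share of genes called was not far from the 37.7% of all genes tested. It was 37.1% for the urea cycle and amino acid catabolism, and 48% for serine, one-carbon and purine genes. Of 35 genes of the urea cycle and of amino acid catabolism 10 were higher and 3 lower, and the median of 0.15 was -0.12 with library size alone. Without 2D WT 3, 7 were lower. The tryptophan-degrading enzymes Kynu (1.47), Kmo (1.12) and Haao (1.83) were higher, as was Prodh (3.66), which degrades proline and had 159, 204 and 138 CPM in 4W WT and 12.3, 20.7 and 6.73 CPM in 2D WT. Among 25 genes of serine, one-carbon and purine metabolism 6 were higher (3 without 4W WT 1) and 6 lower. Their median of -0.06 was near the -0.05 of all genes tested. The serine synthesis genes Phgdh and Psat1 were among those lower, Psat1 with 1.96, 0.920 and 2.73 CPM in 4W WT and 14.9, 11.4 and 13.2 CPM in 2D WT (-2.84, SE 0.46, edgeR adjusted p = 0.000226). The call for Phgdh (-3.32) was lost with limma-voom (adjusted p = 0.0729). The mitochondrial folate gene Mthfd1l changed by -2.99.

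Chaperone genes of the endoplasmic reticulum (ER) were higher at 4W in WT livers. Of 25 tested genes of the unfolded protein response, the program that raises folding and degradation capacity in the ER, 24 were higher and 0 lower, with a median of 1.26. Vimp was the exception (-0.01). Hspa5 (chr2:34771970-34776531), which encodes the main ER chaperone BiP, had 1361, 1385 and 2055 CPM in 4W WT and 500, 477 and 628 CPM in 2D WT (1.58, SE 0.24, edgeR adjusted p = 0.000112). Syvn1, the ubiquitin ligase of ER-associated degradation, had 175, 198 and 265 CPM in 4W WT and 45.9, 52.2 and 49.6 CPM in 2D WT (2.11, SE 0.16, edgeR adjusted p = 2.37e-07). Hyou1, a large ER chaperone, had 343, 328 and 500 CPM in 4W WT and 91.0, 75.6 and 119 CPM in 2D WT (2.04, SE 0.22). Creld2, an ER protein induced by misfolding, had 62.1, 75.4 and 145 CPM in 4W WT and 19.3, 17.2 and 30.6 CPM in 2D WT (2.07, SE 0.34). 4W WT 3 was the highest library in all 4 of these genes, and without it 22 of the 25 were called higher. The count was also 22 without 2D WT 1 or 2D WT 3. Ern1, the ER stress sensor IRE1, changed by 1.47, and Xbp1, the factor it activates by splicing, by 1.70.

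The promoters of 3 of these genes are shown because each holds the ER stress response element, the site through which ATF6 and XBP1 are known to induce ER chaperones. The stretches are from RefSeq (GRCm38.p6), 250 bases that end at the base before the start, on the strand of the gene, which is the plus strand for all 3: chr2:34771840-34772089, chr15:88819396-88819645 and chr19:6046326-6046575. Capitals mark CCAAT followed after any 9 bases by CCACG, or the reverse complement, so the motif contains the shorter CCAAT.
Hspa5: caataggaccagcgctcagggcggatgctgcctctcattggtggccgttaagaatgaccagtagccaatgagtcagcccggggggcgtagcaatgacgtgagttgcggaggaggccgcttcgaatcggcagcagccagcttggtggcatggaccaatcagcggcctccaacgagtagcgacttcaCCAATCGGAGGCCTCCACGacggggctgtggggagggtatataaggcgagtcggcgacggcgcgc
Creld2: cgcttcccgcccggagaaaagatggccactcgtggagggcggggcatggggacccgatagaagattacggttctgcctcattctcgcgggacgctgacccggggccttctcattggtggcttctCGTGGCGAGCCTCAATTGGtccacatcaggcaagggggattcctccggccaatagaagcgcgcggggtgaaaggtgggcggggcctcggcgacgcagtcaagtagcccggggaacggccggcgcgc
Syvn1: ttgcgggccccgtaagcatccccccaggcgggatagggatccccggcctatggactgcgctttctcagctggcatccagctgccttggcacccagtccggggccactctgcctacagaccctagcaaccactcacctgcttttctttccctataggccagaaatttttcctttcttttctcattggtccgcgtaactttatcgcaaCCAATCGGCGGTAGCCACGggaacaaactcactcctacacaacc
The match begins 65 bases before the start in Hspa5, 126 in Creld2, where it is on the opposite strand, and 44 in Syvn1. The RefSeq start of Hspa5 lies downstream of the start in the deposited table. Searched on both strands, the motif was in the window (250 bases before to 50 after the start) of 9 of 21 unfolded protein response genes with a window, 42.9%, and of 18 of 10730 genes tested, 0.168%. CCAAT alone was in 85.7% and 38.3%. It was not particular to this list, with 82.4% of cholesterol synthesis, 79.2% of mitosis and 75% of replication genes. Heat shock, interferon response and NRF2 target genes had it in 33.3%, 38.1% and 51.4%. The sterol response element was in 5.88% of cholesterol synthesis genes, against 1.15% of genes tested. The heat shock element was in 20% of heat shock genes (0.438% of genes tested), and the antioxidant response element in 31.4% of NRF2 targets (14.8%).

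Cytosolic heat shock genes were higher as well. Of 20 tested members 15 were higher at 4W and 0 lower, with a median of 1.08. Hsph1, a chaperone of the HSP110 family, had 103, 111 and 138 CPM in 4W WT and 10.1, 6.91 and 20.2 CPM in 2D WT (3.24, SE 0.36, edgeR adjusted p = 7.79e-06). Hspa1b, the stress-inducible HSP70, had 51.1, 42.2 and 61.8 CPM in 4W WT and 2.38, 3.80 and 8.49 CPM in 2D WT (3.40, SE 0.36). Its near-identical copy Hspa1a was not called (1.63), and reads of the pair can be split between them. Bag3, a cochaperone of HSP70, changed by 1.56 and Ahsa1, an activator of HSP90, by 0.86. The mitochondrial chaperones Hspd1 (0.08) and Hspe1 (-0.05) were not called.

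The change of these chaperone genes differed between WT and KO. In the KO pair 24.2% of genes tested were called (13.5% higher, 10.8% lower), and the difference of the change, WT minus KO, was called for 199 genes, 1.34% of those tested (82 without 4W WT 3, 531 without 2D WT 3). Of the 25 unfolded protein response genes, 4 were higher and 4 lower at 4W in KO (median 0.06), and the difference was called for 11. Of the 20 heat shock genes, 2 were higher and 0 lower in KO (median -0.00), and the difference was called for 9. Hspa5 had 531, 452 and 476 CPM in 4W KO and 738, 750 and 874 CPM in 2D KO, so that it fell by 0.69 in KO, and the difference between WT and KO was 2.28 (edgeR adjusted p = 0.00311). Hyou1 had 78.9, 80.5 and 79.4 CPM in 4W KO and 123, 129 and 145 CPM in 2D KO (-0.73), with a difference of 2.77 (edgeR adjusted p = 0.000574). Creld2 had 14.4, 14.1 and 12.2 CPM in 4W KO and 26.1, 32.6 and 40.2 CPM in 2D KO (-1.28), with a difference of 3.35 (edgeR adjusted p = 0.00311). Hsph1 had 28.4, 31.3 and 23.8 CPM in 4W KO and 24.8, 30.1 and 32.6 CPM in 2D KO (-0.07), with a difference of 3.31 (edgeR adjusted p = 0.00311). In Hspa5, Hyou1, Creld2 and Hsph1 the KO libraries of both times lay below every 4W WT library. In Hspa5 and Hyou1 every 2D KO library was also above every 2D WT library.

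**Figure D3:**
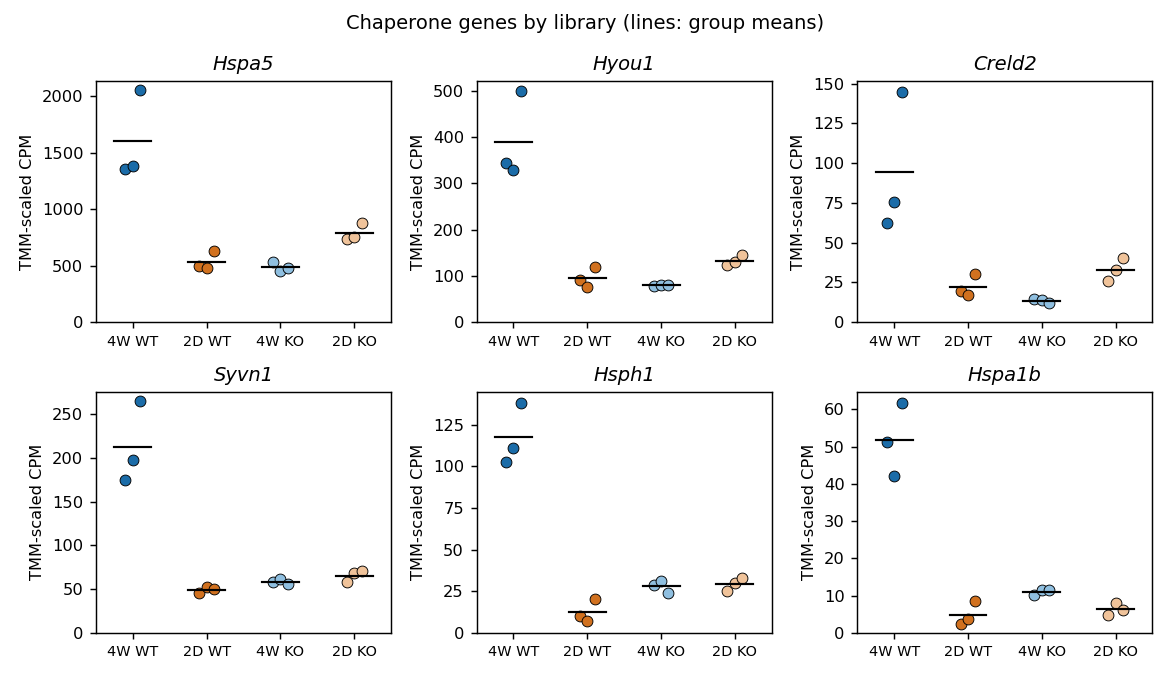
TMM-scaled CPM of 6 chaperone genes in the 3 libraries of each group, with 4W WT, 2D WT, 4W KO and 2D KO side by side, points for libraries and lines for group means. The 4W WT libraries stand above all others, as in Hspa5 with 1361 to 2055 CPM against 500 to 628 in 2D WT, 452 to 531 in 4W KO and 738 to 874 in 2D KO.

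Ribosomal protein genes moved slightly and together. Of 35 tested members 22 were lower at 4W and 0 higher, but the median change was small, -0.45. Rps19 had 106, 102 and 120 CPM in 4W WT and 208, 195 and 176 CPM in 2D WT (-0.82, SE 0.19, edgeR adjusted p = 0.00313). Changes of this size depend on the scaling: with library size alone 34 were lower. The count was 8 without 4W WT 1 or 4W WT 2, 11 without 2D WT 1, and 10 without 2D WT 2. For KO livers 1 of the 35 was called lower, and no difference between WT and KO was called. Of 24 integrated stress response genes 10 were lower and 3 (Chac1, Aars and Sars) higher. Immediate early genes, which respond within minutes to growth factors and to tissue handling, had 9 of 24 lower and 0 higher, among them Gadd45b (-2.87), Btg2 (-2.43), Nr4a1 (-2.72) and Fosl2 (-1.17). That count was 5 without 2D WT 3 and 5 without 4W WT 2.

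Interferon response genes were higher at 4W. Of 30 tested members 28 were higher and 0 lower, with a median of 2.13, and the 2 not called were Usp18 (0.39) and Gbp2 (0.22). Irgm1 (chr11:48861968-48871683), an interferon-induced GTPase, had 76.4, 122 and 117 CPM in 4W WT and 20.2, 21.4 and 26.9 CPM in 2D WT (2.21, SE 0.19, edgeR adjusted p = 6.64e-07). Irf9, a subunit of the complex that carries the type I interferon signal to DNA, had 57.6, 55.7 and 47.7 CPM in 4W WT and 14.1, 13.4 and 18.6 CPM in 2D WT (1.81, SE 0.17). Bst2, which tethers budding viruses to the cell, had 262, 282 and 291 CPM in 4W WT and 69.5, 72.2 and 88.7 CPM in 2D WT (1.86, SE 0.20). Iigp1, another induced GTPase, changed by 2.95. None of these 4 genes had overlapping groups. In the KO pair 12 of the 30 were higher and 0 lower (median 0.76), and the difference between WT and KO was called for 4, Oas3, Stat2, Irf9 and Irgm1.

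Promoters of Irgm1 and Bst2 are shown for an element that many members of the list hold. They are RefSeq stretches of 250 bases that end at the base before the start (GRCm38.p6), both from genes on the minus strand and printed in the direction of the gene, at chr11:48871421-48871670 and chr8:71537473-71537722. Capitals mark GAAA followed after any 2 bases by GAAA, the core of the interferon-stimulated response element, in either orientation. Each stretch holds 2 matches that overlap each other.
Irgm1: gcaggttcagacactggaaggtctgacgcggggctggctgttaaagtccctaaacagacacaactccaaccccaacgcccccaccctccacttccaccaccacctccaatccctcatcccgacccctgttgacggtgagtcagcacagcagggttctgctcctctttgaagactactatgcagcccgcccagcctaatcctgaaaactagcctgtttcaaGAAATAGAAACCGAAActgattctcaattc
Bst2: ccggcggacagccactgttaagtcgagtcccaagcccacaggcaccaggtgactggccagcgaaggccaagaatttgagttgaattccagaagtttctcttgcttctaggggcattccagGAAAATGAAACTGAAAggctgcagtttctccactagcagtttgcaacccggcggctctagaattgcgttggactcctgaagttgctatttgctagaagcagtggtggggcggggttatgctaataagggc
The first match begins 30 bases before the start of Irgm1 and 130 before that of Bst2. The element was in the window of 13 of 21 interferon response genes with a window, 61.9%, against 336 of 10730 genes tested, 3.13%, searched on both strands over 250 bases before to 50 after the start.

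Plasma proteins of the liver divided. Of 28 acute phase genes 12 were higher and 7 lower, with a median of 0.15 that was -0.13 with library size alone. Orm1, the acid glycoprotein orosomucoid, had 786, 789 and 894 CPM in 4W WT and 13.9, 11.1 and 3.94 CPM in 2D WT (6.41, SE 0.76, edgeR adjusted p = 1.59e-05). Saa2, a serum amyloid A, had 23.6, 25.4 and 30.1 CPM in 4W WT and 0.224, 0.400 and 0.649 CPM in 2D WT (5.94, SE 0.87), and Crp changed by 2.03. The metallothionein genes Mt1 (-4.37) and Mt2 (-4.19), which bind zinc and copper, and Lcn2 (-2.10), an iron-siderophore binder, were lower. Of 36 complement and coagulation genes 16 were higher and 2 lower, a count that was 10 without 2D WT 1 or 4W WT 1 and 8 with library size alone. C8a, a component of the membrane attack complex, had 926, 638 and 876 CPM in 4W WT and 70.3, 91.0 and 132 CPM in 2D WT (3.06, SE 0.31). Of 22 apolipoprotein and lipid export genes 6 were higher, among them Apoc3 (2.21), and 3 were lower, among them the lipoprotein lipase Lpl with 151, 186 and 295 CPM in 4W WT and 954, 850 and 859 CPM in 2D WT (-2.08, SE 0.29).

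Iron genes changed in both directions, 8 of 25 higher and 6 lower (4 lower without 2D WT 3, 4W WT 1 or 4W WT 3). Hamp, which encodes the iron hormone hepcidin, had 339, 609 and 273 CPM in 4W WT and 17.6, 39.8 and 12.9 CPM in 2D WT (4.12, SE 0.86, edgeR adjusted p = 0.00169). Its copy Hamp2 had 28.8, 131 and 64.5 CPM in 4W WT and 0.0449, 0.400 and 0.278 CPM in 2D WT (8.27, SE 1.26), and reads can be split between the pair. The transferrin receptor gene Tfrc was lower at 4W (-2.44), and Tmprss6, a protease that restrains hepcidin expression, was higher (1.39).

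Liver zonation markers were described for both ends of the lobule, the pericentral zone around the central vein and the periportal zone. Of 21 pericentral genes 13 were higher and 3 lower (median 1.26), and of 20 periportal genes 4 were higher and 2 lower (median -0.05). The difference between the lists was not tested. Aldh1a1, a retinal dehydrogenase, had 1187, 1368 and 1525 CPM in 4W WT and 44.8, 30.6 and 47.2 CPM in 2D WT (5.06, SE 0.40, edgeR adjusted p = 2.59e-07). The glutamate transporter gene Slc1a2 had 124, 135 and 121 CPM in 4W WT and 4.58, 4.85 and 5.47 CPM in 2D WT (4.67, SE 0.69), and Cyp1a2 changed by 4.50. The 3 pericentral genes that were lower, Ahr (-0.60), Nkd1 (-0.94) and Znrf3 (-0.46), changed by less than 2-fold, and 1 or 0 of them was called with any 1 library left out except 2D WT 2. Among periportal genes Pigr, the receptor that carries IgA into bile, had 1199, 1224 and 891 CPM in 4W WT and 7.0, 16.8 and 31.7 CPM in 2D WT (5.90, SE 0.53). The labels give no hour of sampling. Of 20 clock genes 3 were higher (Nr1d1, Bhlhe40 and Bhlhe41) and 4 lower (Per1, Per3, Cry2 and Wee1).

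Several marker lists of other liver cells were lower at 4W, some of them resting on 1 library. Of 26 stellate cell and fibroblast genes 19 were lower and 1 (Lrat, a retinol-esterifying enzyme of resting stellate cells, 0.87) higher, and the summed level was 1052, 885 and 870 CPM in 4W WT and 1458, 1639 and 8513 CPM in 2D WT. Col1a1, the main fibrillar collagen, had 85.2, 51.9 and 47.3 CPM in 4W WT and 64.9, 89.3 and 1192 CPM in 2D WT (-2.87, SE 0.99, edgeR adjusted p = 0.0321). The groups overlapped, and without 2D WT 3 the log2 fold change was -0.35 (adjusted p = 0.752). Without 2D WT 3, 5 of the 26 genes were lower and 1 higher, and without any 1 of the 4W WT libraries 11 or 12 were lower. Dcn, a matrix proteoglycan, did not rest on that library, with 148, 143 and 153 CPM in 4W WT and 373, 369 and 389 CPM in 2D WT (-1.35, SE 0.19, edgeR adjusted p = 7.01e-05), nor did the fibroblast receptor Pdgfra, with 7.22, 6.55 and 5.79 CPM in 4W WT and 26.3, 27 and 38.7 CPM in 2D WT (-2.23, SE 0.33). Of 17 cholangiocyte and progenitor genes 9 were lower and 1 higher, with sums of 266, 323 and 314 CPM in 4W WT and 310, 275 and 855 CPM in 2D WT. Without 2D WT 3, 2 were lower and 2 higher, and without any 1 of the 4W WT libraries 3 or 4 were lower.

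**Figure D4:**
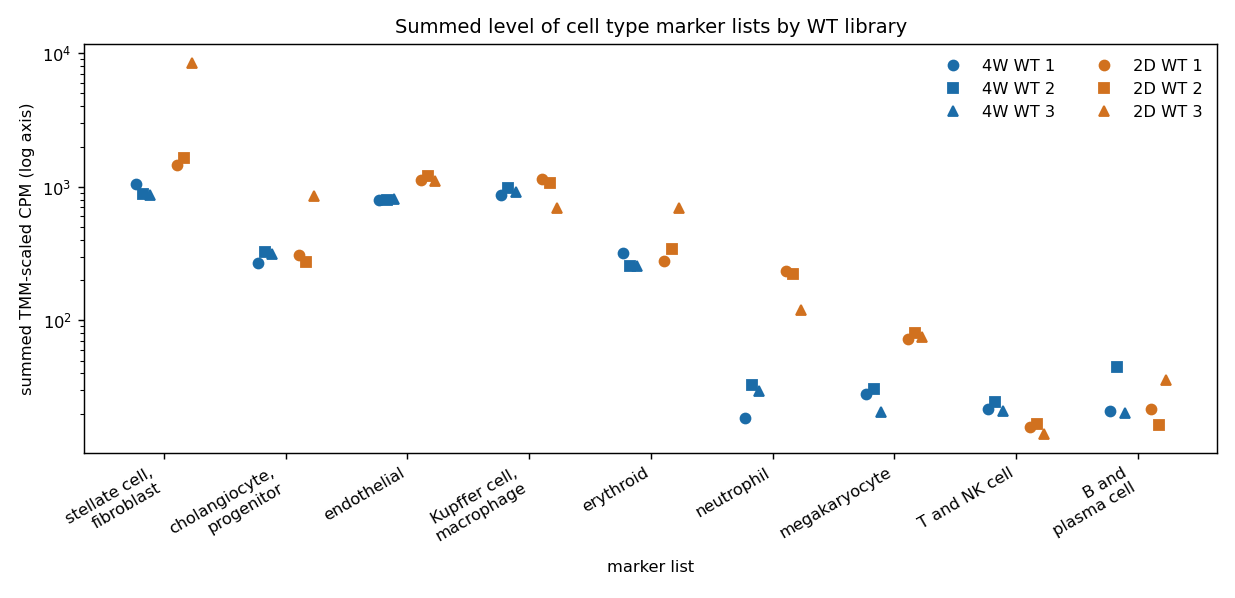
Summed TMM-scaled CPM of 9 marker lists on a log axis, with the 3 libraries of 4W WT in blue left of the 3 of 2D WT in orange and a symbol for each replicate number. The sums take all list members found in the count table, tested or not. 2D WT 3 stands apart in the stellate cell and fibroblast list (8513 against 1458 and 1639 CPM), and neutrophil and megakaryocyte sums are lower in every 4W WT library.

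Blood lineage markers were lower at 4W in the granulocyte and platelet lines. Neutrophil sums were 18.6, 32.6 and 29.6 CPM in 4W WT and 234, 222 and 119 CPM in 2D WT, and 8 of 15 tested genes were lower and 0 higher (median -3.37). S100a8, a calcium-binding protein of neutrophil cytoplasm, had 0.0543, 0.307 and 0.0651 CPM in 4W WT and 5.66, 6.05 and 5.47 CPM in 2D WT (-5.22, SE 0.82, edgeR adjusted p = 0.000179). The count of 8 was 5 without 2D WT 1, without 4W WT 1 or without 4W WT 2. Megakaryocyte and platelet sums were 28.2, 30.7 and 20.8 CPM in 4W WT and 72.8, 80.4 and 75.0 CPM in 2D WT, with 6 of 14 lower and 0 higher. Itga2b, the platelet integrin, had 3.97, 4.14 and 3.84 CPM in 4W WT and 11.7, 11.7 and 11.2 CPM in 2D WT (-1.53, SE 0.29). Erythroid sums, 322, 255 and 257 CPM in 4W WT and 279, 341 and 690 CPM in 2D WT, overlapped, and of 13 tested genes 2 (Alas2 and Car1) were higher and 1 (Car2) lower.

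Endothelial genes were modestly lower, with 10 of 26 lower and 0 higher, such as Kdr, a receptor of VEGF, with 39.2, 38.7 and 41.9 CPM in 4W WT and 61.8, 68.9 and 61.2 CPM in 2D WT (-0.68, SE 0.16, edgeR adjusted p = 0.00332). With library size alone 18 were lower. Of 24 Kupffer cell and macrophage genes 20 were not called, 3 were lower and 1 was higher. The scavenger receptor gene Marco had 13.5, 20.6 and 19.3 CPM in 4W WT and 211, 201 and 86.9 CPM in 2D WT (-3.22, SE 1.00, edgeR adjusted p = 0.0188), a call lost without any 1 of the 4W WT libraries, and Itgam (-2.42) and Spic (-2.14) were lower too. Of these 3 lower genes, 1 was called without 4W WT 3. The higher gene was Folr2 (0.94, edgeR adjusted p = 0.0358). Its call was lost without 2D WT 1, 2D WT 3, 4W WT 2 or 4W WT 3, and with library size alone. Of 21 T and NK cell genes only Zap70 was called (3.13), of 14 B and plasma cell genes Igj (2.30) and Ebf1 (-3.54), whose log2 fold change without 2D WT 3 was -0.19. The call for Ebf1 was also lost without any 1 of the 4W WT libraries. That for Igj (edgeR adjusted p = 0.0496) was lost with limma-voom, with library size alone and with any 1 library left out except 4W WT 1. Of 12 tested MHC class II genes 4 were higher (Cd74, H2-Aa, H2-Ab1 and Ciita) and 0 lower, and in all 4 the highest 2D WT value was that of 2D WT 3. The count of 4 was 1 without 2D WT 1 or 2D WT 2. Of 24 chemokine and cytokine genes 4 were higher, among them the interferon-induced Cxcl9 (3.26) and Cxcl10 (2.04), and 2 were lower, Lif (-3.78) and Tgfb1 (-0.83). Pancreas genes could be tested for 3 of 20 members, with Pnliprp1 and Cela2a lower and Cela1 higher. The call for Cela2a (-1.84) was lost without 2D WT 3 (-1.06, adjusted p = 0.204), without 4W WT 1 or 4W WT 2, with limma-voom and in the 6 WT libraries alone. How far cell makeup moved the results for other lists was not tested.

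Over all genes, the change in WT and that in KO had much in common. The 2 pairs of time points share no library. In the same direction 2492 genes were called in both, which is 44.5% of the WT calls and 69.1% of the KO calls, and 30 were called in opposite directions. Fetal genes (13 of 18 lower in KO, median -3.24), p53 targets (22 of 34 lower) and cholesterol synthesis genes (22 of 25 higher) had like counts in KO, with the difference between WT and KO called for 0, 0 and 2 of their members. Other lists had unlike counts. Of 24 gluconeogenesis and fasting genes 14 were lower in WT and 6 in KO, with the difference called for 3. Of 26 endothelial genes 10 were lower in WT. In KO 1 of them was lower and 4 were higher, and the difference was called for 3. Of 26 stellate cell and fibroblast genes 19 were lower in WT and 5 in KO, with 0 differences called. In the growth hormone and IGF axis 9 of 18 were higher in WT and 3 in KO. Cdkn1a had a log2 fold change of -3.27 in KO and -2.18 in WT, and the difference of 1.08 was not called (edgeR adjusted p = 0.345). Of the 199 genes with a called difference, 150 had a value above 0 and 49 below 0. At the negative end was Igfbp1, which had a log2 fold change of -1.46 in KO, against -5.94 in WT, a difference of -4.49 (edgeR adjusted p = 0.0241) whose call was lost without 2D WT 2, 4W WT 2, 4W WT 3, any 1 of the 2D KO libraries or 4W KO 3.

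**Figure D5:**
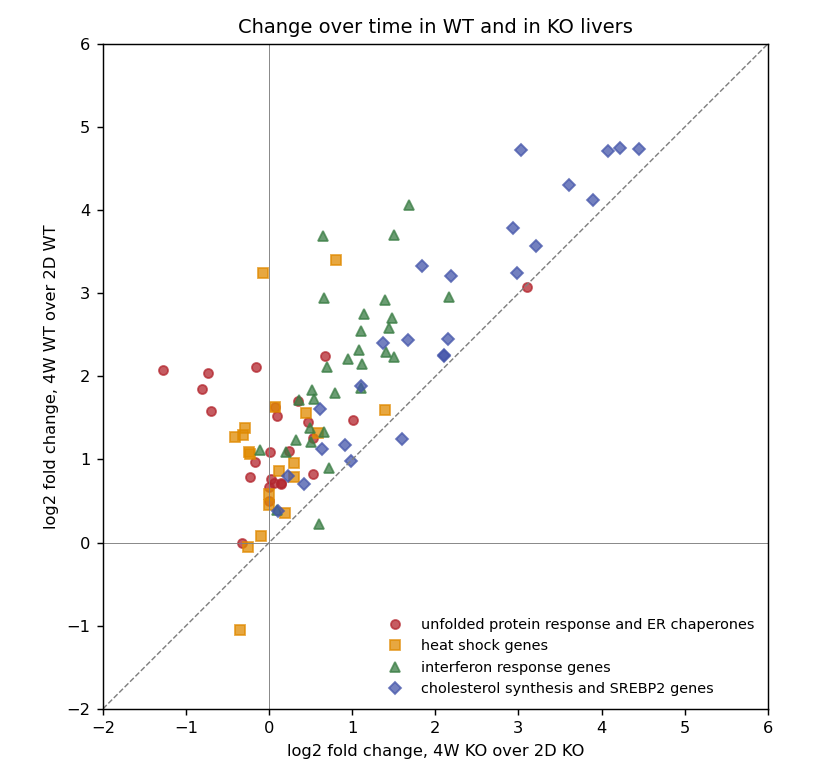
Each point is 1 tested gene of 4 lists, with its log2 fold change of 4W WT over 2D WT on the vertical axis and of 4W KO over 2D KO on the horizontal axis, and the dashed line marks equal change. Cholesterol synthesis genes lie near the line (medians 2.43 in WT and 2.10 in KO), while unfolded protein response genes (1.26 and 0.06), heat shock genes (1.08 and -0.00) and interferon response genes (2.13 and 0.76) lie above it.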

How the data were processed

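Read counts per gene were deposited by the authors as 1 table of 35275 genes in 18 libraries of liver RNA (TruSeq RNA kit, per the labels). All libraries were at 0 for 11853 of the genes. The submitters' processing notes name STAR 2.5, HTSeq, DESeq2 and mm10, with no role given. Whether counting used strand is not given in the sources used here, so reads of overlapping or antisense genes cannot be told apart. Date-like entries stood in place of 27 gene names and were replaced by the name of their gene ID.

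Counts were fitted with edgeR 4.0.16 (R 4.3.3; quasi-likelihood F test, TMM scaling, filterByExpr, 6 group means over 18 libraries), which left 14877 genes. Adjusted p-values are Benjamini-Hochberg values over all of them, with a threshold of 0.05. The difference between WT and KO is the interaction term of the same fit. Nothing in the labels ties libraries to separate animals. The p-values therefore reflect sample-to-sample spread alone, which may be technical. An exact permutation test of 3 libraries against 3 cannot go below p = 0.1 and was not used. Where a group had no count, folds are bounds against a floor of 3 counts over the group, which covers counting error only. The floor of a single library was 0.153 to 0.195 CPM in 4W WT and 0.135 to 0.150 CPM in 2D WT.

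The 50 gene lists, like the choice of libraries, were drawn up with earlier results of these data known. Genes were named by rule: Nfe2l2 and Nqo1, the 15 largest changes in each direction among called genes with a mean log2 CPM of at least 1 and no overlap, up to 4 called members of each list by p-value (all members of a list with 5 or fewer calls), and the 5 largest differences between WT and KO in each direction. Other genes named in the text, among them Hspa5, Cdkn1a, Mdm2, Gpc3, Col1a1, G6pc, Hamp, Pck1, Hnf4a, Tat, Xbp1 and the exceptions within lists, were chosen after their values were seen. Alternatives were DESeq2 1.42.0, limma-voom (limma 3.58.1), other scalings and filters, a 2-fold minimum, a replicate block, the WT libraries alone and each library left out in turn. Some genes that the rule selects are not reported here.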

Additional observations from a re-analysis of the deposited data

Results flagged for a closer look

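The change between 4W and 2D differed between WT and KO, by the edgeR test of the difference itself (adjusted p under 0.05), in the 27 genes given here. The values are log2 differences, WT minus KO. Among ER chaperone and degradation genes they were 3.35 for Creld2, 2.77 for Hyou1, 2.27 for Syvn1, 1.42 for Pdia4 and 2.28 for Hspa5. Among heat shock genes they were 3.31 for Hsph1, 2.60 for Hspa1b, 1.11 for Bag3 and 0.75 for Ahsa1. The interferon response genes Irgm1 and Irf9 had 1.26 and 1.01. The transcription factors Foxa1, Foxa3 and Bhlhe40 had 1.57, 1.12 and 1.30.

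Metabolic genes with a value above 0 were Selenbp2 (3.33), Ugt2b5 (1.43), Aars (0.85) and Eci1 (0.68). The secreted proteins Tsku (3.32) and Saa4 (1.28) were above 0 too. Tsku had 52.2, 139 and 147 CPM in 4W WT and 68.2, 63.1 and 33.6 CPM in 2D WT, and neither direction was called in WT (1.03), while it changed by -2.29 in KO. Values below 0 were -4.49 for Igfbp1, -3.90 for Zc3h6, -3.19 for Tff3, -2.94 for Nipal1, -2.73 for Vldlr, -2.45 for Ppargc1a and -1.91 for Slc7a2. Vldlr, a lipoprotein receptor, had 6.08, 7.98 and 7.94 CPM in 4W WT and 24.9, 20.1 and 22.4 CPM in 2D WT (-1.61), against a change of 1.11 in KO. Of the 12 libraries of 2D and 4W left out 1 at a time, the call for Tff3 was lost in 11 cases, and also with a replicate block (adjusted p = 0.0668). By the same count the call for Selenbp2 was lost in 9 cases, those for Igfbp1 and Nipal1 in 7 each, and that for Tsku in 3. Only the 10 genes named for the largest differences were followed in this way. Of these, Creld2, Hsph1, Hyou1, Zc3h6 and Vldlr kept their call throughout. Whether the calls for the other flagged genes hold with single libraries left out was not examined.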

How the results depend on the processing

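No fold change turned round in any alternative run for 207 named genes, 6 of them chosen after their values were seen. Most of the 207 were named because the main fit called them, and the alternative runs reuse its libraries. A kept direction was therefore largely fixed by that choice. Of the values of these 207 genes under alternatives, 3544 kept their side of the threshold, 178 lost it and 1 gained it. Other genes named in the text, among them Mdm2, Pck1, Hnf4a, Tat and Xbp1, were not followed in these runs for their change in WT. The number of genes called was 4389 to 5005 with 1 WT library left out, against 5606. With a required change above 2-fold it was 898, of which 460 were higher and 438 lower. Library size alone gave 1532 higher and 4817 lower genes. More genes were higher than lower in the reported fit (2845 and 2761), while fewer were with DESeq2 (2843 and 3114) and with its size factors (2729 and 2865). The number of genes whose change differed between WT and KO, 199, was 623 with DESeq2, 125 with library size alone, 371 in a fit of the 12 libraries of 2D and 4W, and 82 (without 4W WT 3) to 531 (without 2D WT 3) with single libraries left out. It was also 83 without 4W KO 3, 85 without 2D WT 2, 102 to 109 without any 1 of the 2D KO libraries, 104 without 4W WT 2 and 126 without 4W KO 2. The fit of 12 libraries and that of the WT libraries without 2D WT 3 were chosen after seeing the data. The reported fit of 18 libraries was also chosen with earlier results known, among them that 1 library of 2D WT stood apart. A fit of the 6 WT libraries alone called 4817 genes. With a replicate block the calls were 5466 over 18 libraries and 4180 over the 6 WT libraries, and 194 genes differed between WT and KO. The same-numbered libraries correlated at -0.0009, -0.0461 and 0.0130 in their deviations from the group means, so the numbers were not taken as pairs. Levels below the floor of 3 counts could not be told from 0 at this depth. Causes of these shifts were not tested.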
